A study of Mus musculus with 18 samples.

Results

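The mouse mitochondrial genome encodes 37 genes, and they are described here as a group in oocytes with and without LSM14B, a cytoplasmic protein that binds RNA in ribonucleoprotein granules. Members were all genes that GENCODE vM21 places on the mitochondrial chromosome, 13 mRNAs, 2 rRNAs and 22 tRNAs. The expression table listed 17 of these 37 among its 27874 genes: the 13 mRNAs, the 2 rRNAs and 2 tRNAs, mt-Tp and mt-Tc. The other 20, all tRNAs, were not analysed here. Of the 17, 15 passed a minimum of 1 FPKM in 3 of 18 libraries and were tested, as 12 mRNAs, 2 rRNAs and mt-Tp. FPKM is a read number scaled by gene length and library depth.

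Libraries of 15 pooled oocytes were made from Lsm14b-/- mice (KO) and wild-type mice (WT), at 3 stages: germinal vesicle (GV), metaphase I (MI), and 14 h after hCG, the ovulation-inducing hormone chorionic gonadotropin, a time that the labels denote MII in both genotypes. Each of the 6 groups had 3 replicates. The labels give neither the strain, the age of the mice, nor the design of the Lsm14b-/- allele, and do not state whether KO oocytes had reached metaphase II. Nothing states that replicates came from separate mice, so p-values measure the spread between these libraries, which may be technical.

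Mitochondrial DNA is transcribed as long RNAs from both strands by the polymerase POLRMT, and tRNAs are cut out from between the mRNAs and rRNAs. The mRNAs encode subunits of respiratory complexes I, III and IV and of ATP synthase (complex V), whose other subunits come from nuclear genes. Oocytes are rich in mitochondria, which pass to the embryo. Mature mitochondrial mRNAs carry short poly(A) tails, with mt-Nd6 as an exception in human cells, and for some the tail completes the stop codon.

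The 3′ ends show that feature in the mouse sequences, which matters here because the cDNA was primed with oligo(dT). The last 24 bases of 6 mRNAs follow, as the coding strand from the GENCODE vM21 transcripts, with the stop codon, or its first base where no more is encoded, in capitals.
mt-Cytb: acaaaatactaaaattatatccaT
mt-Nd4: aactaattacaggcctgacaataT
mt-Co3: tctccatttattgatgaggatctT
mt-Nd1: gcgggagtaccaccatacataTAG
mt-Co1: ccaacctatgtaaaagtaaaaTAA
mt-Nd6: attatcgagattactcgagatTAA
The genes for mt-Cytb, mt-Nd4 and mt-Co3 ended in a single T after the last full codon, whereas mt-Nd1, mt-Co1 and mt-Nd6 as annotated ended in a full stop codon. That of mt-Nd1, which ends at position 3707, overlaps mt-Ti, a tRNA gene on the same strand that starts at 3706. Whether mt-Nd1 mRNA keeps the full codon once the tRNA is cut out was not tested. Oligo(dT) can also pair with runs of A inside an RNA. The longest such runs among the mRNAs and rRNAs tested were 8 bases in mt-Nd2 and 7 bases in mt-Co1, mt-Nd4, mt-Nd5 and mt-Rnr2, shown for mt-Nd2 and mt-Rnr2 with the run in capitals.
mt-Nd2: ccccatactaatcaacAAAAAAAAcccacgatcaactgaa
mt-Rnr2: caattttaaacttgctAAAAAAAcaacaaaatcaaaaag
Whether cDNA started at these runs was not tested.

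Several members have nuclear copies in mitochondrial order on chromosome 1, at chr1:24611535-24616197 on the minus strand of GRCm38, the assembly that mm10 in the labels names. Pairs below are shown because reads from identical stretches cannot be placed on sequence alone. Capitals mark bases that differ, and positions count from 1 at the first base of the mitochondrial gene.
mt-Co2: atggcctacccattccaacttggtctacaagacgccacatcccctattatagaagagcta
Gm28661: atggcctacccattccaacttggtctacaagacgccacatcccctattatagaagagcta
mt-Co1: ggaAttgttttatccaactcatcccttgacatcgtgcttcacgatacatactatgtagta
Gm29216: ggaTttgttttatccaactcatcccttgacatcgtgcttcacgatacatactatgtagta
mt-Cytb: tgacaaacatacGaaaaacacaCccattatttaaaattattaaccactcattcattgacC
Gm11410: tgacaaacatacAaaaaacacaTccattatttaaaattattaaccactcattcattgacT
Over these 60 bases the mt-Co2 pair had 0 differences, the mt-Co1 pair had 1 (A1066T), and mt-Cytb differed from its copy on chromosome 4 at 3 positions (G14A, C24T and C61T). Copies that matched over at least 200 bases at 98% identity or more covered 99.0% to 99.9% of mt-Nd4l, mt-Nd3, mt-Atp6, mt-Co2 and mt-Co3. They covered 63.6% of mt-Nd4 and 31.3% of mt-Co1. No copy that close was found in the annotated transcripts for mt-Nd1, mt-Nd2, mt-Nd5, mt-Nd6, mt-Cytb, mt-Atp8, mt-Rnr1 or mt-Rnr2. Levels of the covered members are therefore uncertain, since how reads with more than 1 match were counted is not given in the sources used here.

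Depth, as recovered from the scaling of FPKM, ran from 14227763 to 17183680 reads per library. Whether it counts reads on genes or all mapped reads was not tested. Lsm14b stood at 0 to 0.234 FPKM in the 9 KO libraries and 2.04 to 11.2 FPKM in the 9 WT libraries. All 11 oocyte markers reached 1 FPKM, with a summed level of 9826 to 27028 FPKM per library. Of 13 cumulus and granulosa markers, 5 reached 1 FPKM in any library, and the 13 summed to 3.99 to 9.87 FPKM. The 5 were Cyp19a1 (1.89 to 6.09 FPKM over all libraries), Kitl (0.606 to 3.51), Inha (at most 2.19), Fshr (at most 1.95) and Gja1 (at most 1.17). Foxl2, Amh and Amhr2 stayed at or under 0.0792 FPKM. Blood markers summed to at most 27.8 FPKM, in WT MI, where Lyz2 led. KO GV replicate 2 stood apart: deviations of all tested genes from their group means had an SD of 0.522 there, with 0.476 in KO GV replicate 3 and at most 0.327 in the libraries outside that group.

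FPKM values differed widely between the mRNA genes, also among those read from the same strand, which are all but mt-Nd6. By mean FPKM over the 18 libraries, mt-Cytb (cytochrome b of complex III, ENSMUSG00000064370, mitochondrial positions 14145 to 15288) was highest at 4830.1, before mt-Co1 (catalytic subunit of complex IV) at 3212 and mt-Nd1 (complex I) at 3011. These 3 mRNAs made up 69.3% to 92.6% of the summed mRNA FPKM of a library. A second tier held mt-Nd2 at 800.2, mt-Nd4 at 485, mt-Atp6 at 217, mt-Nd6 at 184 and mt-Nd5 at 156 FPKM. The lowest were mt-Co2 at 40.3, mt-Co3 at 6.51, mt-Nd3 at 2.81, mt-Nd4l at 2.27 and mt-Atp8 at 0.255 FPKM.

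Several neighbours in this order were not separated. mt-Cytb exceeded mt-Co1 in 14 of 18 libraries, mt-Co1 exceeded mt-Nd1 in 11, mt-Atp6 exceeded mt-Nd6 in 12, mt-Nd6 exceeded mt-Nd5 in 12, and mt-Nd3 exceeded mt-Nd4l in 9. In contrast mt-Nd1 lay above mt-Nd2, mt-Nd4 above mt-Atp6, mt-Nd5 above mt-Co2 and mt-Co2 above mt-Co3 in all 18. The 4 lowest mRNAs other than mt-Atp8 were mt-Nd4l, mt-Nd3, mt-Co3 and mt-Co2, all covered almost whole by a nuclear copy. mt-Atp6, covered as fully, stood higher, and the short mt-Atp8, with no close copy in the transcripts, had 0 to 3 reads. On chromosome 1 the copy of mt-Atp6 ends at 24614651 and that of mt-Co2 starts at 24614885. The bases between, where mt-Atp8 would lie in mitochondrial order, were searched only where a transcript is annotated. mt-Atp8 overlaps mt-Atp6, and mt-Nd4l overlaps mt-Nd4, so reads in the shared bases belong to both genes of a pair. Whether both genes of a pair lie on the same RNA was not tested, so their values need not be levels of separate RNAs.

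**Figure D1:**
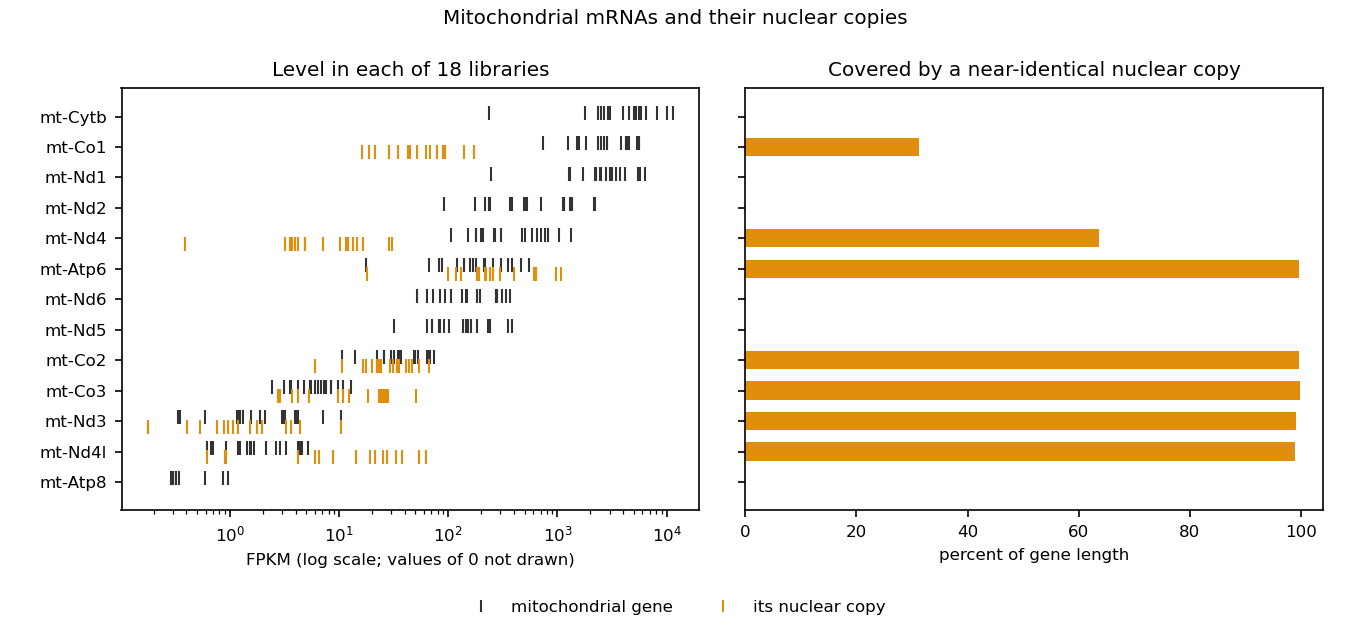
Level of each mitochondrial mRNA (dark ticks, FPKM on a log scale, 1 tick per library, 18 libraries) and of its near-identical nuclear copy (orange ticks), beside the percent of the gene's length that the copy covers. mt-Cytb, mt-Co1 and mt-Nd1 lie highest, and the mRNAs from mt-Co2 down to mt-Nd4l are covered to at least 99.0%.

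The summed mRNA level was higher at MII than at GV in both genotypes. In KO oocytes it was 7348, 1756 and 9967 FPKM at GV, 8816, 9199 and 11862 at MI, and 13678, 15378 and 18204 at MII. In WT oocytes it was 5786, 6051 and 7520.3 FPKM at GV, 16232, 21774 and 10571 at MI, and 16127, 27188 and 25587 at MII. Neither genotype's MII libraries overlapped its GV libraries, while KO and WT libraries overlapped at every stage. The mRNAs took 4.03% to 5.26% of all FPKM in KO MII and 5.01% to 7.96% in WT MII, with 0.469% to 2.54% in KO GV and 1.47% to 1.83% in WT GV. FPKM is a share of each library, so more mitochondrial RNA and less of other RNA per oocyte cannot be told apart, nor can fewer mitochondria and less RNA in each.

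**Figure D2:**
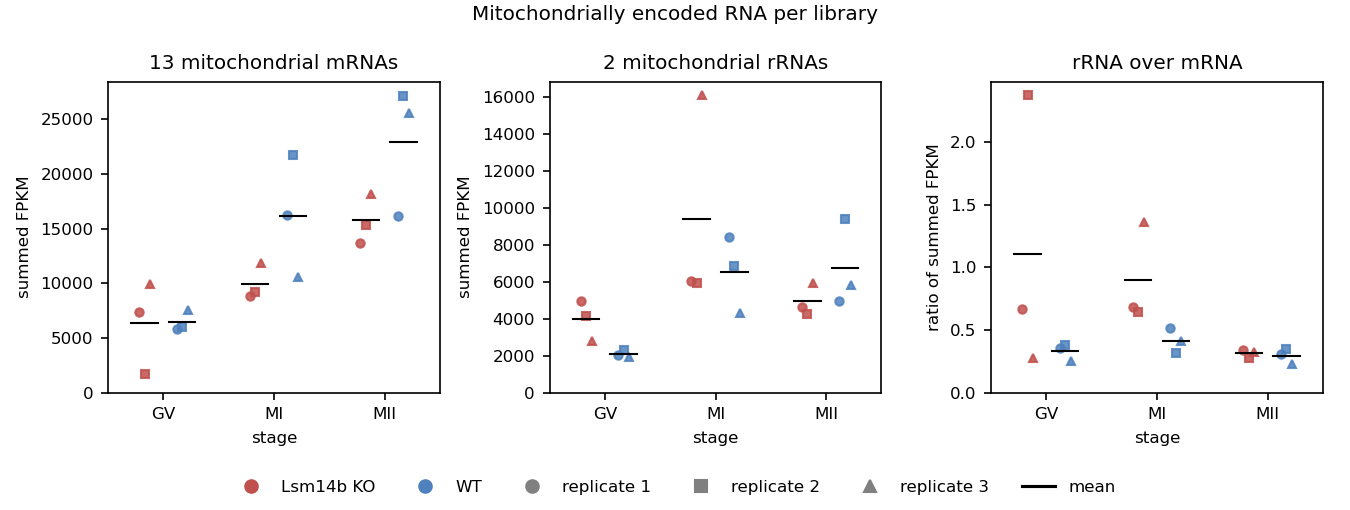
Summed FPKM of the 13 mitochondrial mRNAs (left), summed FPKM of the 2 rRNAs (middle) and their ratio (right) in each library, by stage, with Lsm14b KO left of WT; bars are group means. The mRNA sum in WT rises above its GV range of 5786 to 7520.3 in every later library, and KO GV replicate 2 lies lowest at 1756.

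The rRNA sum followed another course. In KO oocytes it was 4928, 4167 and 2780.2 FPKM at GV, 6049, 5937 and 16098 at MI, and 4609, 4243 and 5953 at MII. In WT oocytes it was 2041, 2283 and 1931 FPKM at GV, 8429.5, 6849 and 4316 at MI, and 4963, 9372 and 5804 at MII. All 3 KO libraries lay above all 3 WT libraries at GV, and the groups overlapped at MI and MII. The ratio of summed rRNA to summed mRNA was 0.671, 2.37 and 0.279 in KO GV, against 0.353, 0.377 and 0.257 in WT GV. It was 0.686, 0.645 and 1.36 in KO MI, against 0.519, 0.315 and 0.408 in WT MI. At MII it was 0.337, 0.276 and 0.327 in KO and 0.308, 0.345 and 0.227 in WT. The ratio was thus higher in KO without overlap at MI alone, a description with no test.

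KO GV replicate 2 was low in some mRNAs and not in others. It had 248 FPKM of mt-Nd1, where the other KO GV libraries had 2220.3 and 3437, and 236 FPKM of mt-Cytb, where they had 1795 and 2907. mt-Atp6 stood at 17.8 FPKM in it and at 87.9 and 119.9 in the others. mt-Nd2 (243 FPKM, others 367 and 238), mt-Co2 (25.9, others 29.8 and 31.9) and mt-Nd6 (105, others 147 and 84.6) were within or near the range of the others, and mt-Co3 was highest there at 7.25 FPKM. The ratio of mt-Nd2 to mt-Cytb was 1.03 in that library and 0.0392 to 0.256 in the other 17. Leaving this library out ended 1 member's call in the comparisons that use KO GV, mt-Rnr1 in KO against WT at GV, and added none there.

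In WT oocytes, 14 of the 15 members tested were higher at MII than at GV (limma, adjusted p under 0.05), which was all 12 mRNAs and both rRNAs. Of all 10320 genes tested, 28.9% were higher in that comparison. The median log2 change of the mRNAs was 1.81, against 0.087 for all genes, and it ranged from 0.89 for mt-Co3 to 3.58 for mt-Nd2. Log2 changes are of FPKM + 1, which understates the change of low genes. Of the 4 cumulus and granulosa markers tested, 2 were higher in the same comparison, Kitl (log2 0.83, adjusted p = 0.00392) and Cyp19a1 (log2 0.61, adjusted p = 0.0151). The summed level of the 13 was 7.92 to 9.87 FPKM in WT MII and 3.99 to 9.08 FPKM in WT GV, and its part in the result was not tested. Without any 1 library, and under each other setting in which the gene was tested, 10 of the 14 calls were kept. mt-Cytb lost its call without WT MII replicate 2 or 3 or WT GV replicate 1 or 2, and mt-Nd1 without WT MII replicate 2 or 3 or WT GV replicate 1 or 3. mt-Nd3 lost its call without WT GV replicate 2 or WT MII replicate 2, and mt-Co3 without WT MII replicate 2. With no filter on low values mt-Cytb, mt-Nd1 and mt-Nd3 lost theirs, and with median-of-ratios scaling mt-Cytb and mt-Nd1.

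mt-Nd2, a complex I subunit (ENSMUSG00000064345, mitochondrial positions 3914 to 4951), rose most. WT libraries held 177, 91.9 and 215 FPKM at GV, 1154, 1134 and 528 at MI, and 1295, 2152 and 2192 at MII. Every MI and MII library was above every GV library. The log2 change was 3.58 ± 0.44 (SE) from GV to MII (adjusted p = 2.42e-06) and 2.53 ± 0.44 to MI (adjusted p = 0.00538), and both calls were kept in every setting run. Its share of the summed mRNA FPKM was 8.03%, 7.91% and 8.57% in WT MII and 3.06%, 1.52% and 2.86% in WT GV. The ratio of mt-Nd2 to mt-Cytb was 0.221, 0.189 and 0.218 in WT MII, against 0.0663, 0.0392 and 0.0538 in WT GV.

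Other complex I mRNAs followed at MII. mt-Nd4 held 765, 1038 and 1320.0 FPKM in WT MII and 178, 151 and 180.3 in WT GV, a log2 change of 2.58 ± 0.39 (SE; limma, adjusted p = 2.21e-05). mt-Nd5 held 234, 352 and 383 FPKM in WT MII and 63.8, 70.7 and 71.7 in WT GV (log2 2.19 ± 0.34, adjusted p = 3.39e-05). mt-Nd6, the only mRNA read from the minus strand, held 276, 365 and 341 FPKM in WT MII and 73.2, 52.2 and 63.6 in WT GV (log2 2.36 ± 0.37, adjusted p = 3.32e-05). The groups did not overlap for any of these. mt-Nd6 overlaps the antisense mt-Nd5 at its 3′ end, and the strand of counting is not given in the sources used here. Reads in the shared bases therefore cannot be told apart. Since both strands are transcribed as long RNAs, plus-strand RNA across the rest of mt-Nd6 could also have been counted on it. This limit holds for every mt-Nd6 value given here, and its size was not tested.

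The 3 most abundant mRNAs, for subunits of complexes I, III and IV, were higher at MII as well. mt-Cytb held 5857, 11407 and 10045 FPKM in WT MII and 2667, 2342 and 3993 in WT GV (log2 1.58 ± 0.59 SE, adjusted p = 0.0281 in limma). mt-Co1 held 4519, 5528 and 5338 FPKM in WT MII and 1236, 1558 and 1500.2 in WT GV (log2 1.84 ± 0.39, adjusted p = 0.000697). mt-Nd1 had the log2 change 1.65 ± 0.63 (adjusted p = 0.0311), with 2811 FPKM in its lowest WT MII library and 1703 in its highest WT GV library. mt-Atp6, the ATP synthase proton-channel subunit, had 304, 551 and 387 FPKM in WT MII and 82.8, 66.6 and 157 in WT GV (log2 2.06 ± 0.52, adjusted p = 0.00266).

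Part of the WT rise was present at MI. From GV to MI, 9 members were higher in WT (limma, adjusted p under 0.05), among 2.75% of all genes that were higher. They were mt-Nd2, mt-Nd4, mt-Nd4l, mt-Nd5, mt-Nd6, mt-Co2, mt-Co3 and both rRNAs, and the median log2 change of the mRNAs was 1.47, against 0.241 for all genes. mt-Rnr1, the small-subunit rRNA, held 3176, 1887 and 991 FPKM in WT MI and 502, 482 and 463 in WT GV (log2 1.91 ± 0.48 SE, adjusted p = 0.0311). mt-Rnr2, the large-subunit rRNA, held 5254, 4962 and 3325 FPKM in WT MI and 1539, 1801 and 1468 in WT GV (log2 1.47 ± 0.34, adjusted p = 0.0231). The count depended on single libraries. It was 1 without WT GV replicate 1, WT GV replicate 2 or WT MI replicate 1, and 2 without WT GV replicate 3 or WT MI replicate 2. With no filter on low values mt-Nd2 alone was called, and with median-of-ratios scaling the count was 5. WT MI replicate 3 was the lowest of its group for all 13 mRNAs.

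Between MI and MII no member was called in WT, where 33.0% of all genes changed. At an unadjusted p under 0.05 there were 2, and voom on the recovered reads called 0. The median log2 change of the mRNAs was 0.59, against -0.142 for all genes, and the nearest to the threshold was mt-Nd2 (log2 1.05 ± 0.44 SE, adjusted p = 0.0773 in limma). The rRNAs had log2 changes of 0.04 and 0.05. mt-Nd4 and mt-Nd5 were called when KO GV replicate 2 was left out, and mt-Nd4 without WT MI replicate 1.

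In KO oocytes, 6 of the 15 members were higher at MII than at GV, namely mt-Cytb, mt-Nd2, mt-Nd4, mt-Nd5, mt-Co1 and mt-Atp6 (limma, adjusted p under 0.05), where 11.9% of all genes were higher. The median log2 change of the 12 mRNAs was 1.37, against -0.068 for all genes. Of the 4 cumulus and granulosa markers tested, 2 were lower and 0 higher. Without KO GV replicate 2 the same 6 genes were called, and the median of the mRNAs was 0.72. mt-Cytb held 5046, 6469 and 5529.8 FPKM in KO MII and 1795, 236 and 2907 in KO GV. Its log2 change was 2.40 ± 0.59 (SE, adjusted p = 0.00353) and 1.31 without KO GV replicate 2 (adjusted p = 0.00528). mt-Co1 held 3809.9, 4234 and 5600.5 FPKM in KO MII and 2339, 733 and 2859 in KO GV, with a log2 change of 1.40 ± 0.39 (adjusted p = 0.00891) and 0.79 without that library.

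mt-Nd4 and mt-Nd5 kept their calls in every setting run, whereas mt-Cytb, mt-Co1 and mt-Atp6 lost theirs with only the groups compared and mt-Nd2 with no filter on low values. mt-Nd4 held 471, 589.5 and 711 FPKM in KO MII and 263, 106 and 201 in KO GV (log2 1.71 ± 0.39 SE, adjusted p = 0.00179 in limma), and 1.34 without KO GV replicate 2. mt-Nd5 held 162, 136 and 184 FPKM in KO MII and 91.3, 32.1 and 83.7 in KO GV (log2 1.33 ± 0.34, adjusted p = 0.00458), and 0.86 without KO GV replicate 2. mt-Nd2 had 711, 501 and 1372 FPKM in KO MII and 367, 243 and 238 in KO GV (log2 1.50 ± 0.44, adjusted p = 0.012), and 1.41 without KO GV replicate 2. Its call was lost without KO MII replicate 3. mt-Atp6 held 213, 180.5 and 256 FPKM in KO MII and 87.9, 17.8 and 119.9 in KO GV (log2 1.88 ± 0.52, adjusted p = 0.00829), and 1.06 without KO GV replicate 2.

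The rRNAs were not called in KO between GV and MII. mt-Rnr1 held 1419.9, 689 and 1696 FPKM in KO MII and 1725, 1843 and 629 in KO GV (log2 -0.09 ± 0.48 SE, adjusted p = 0.903 in limma). mt-Rnr2 held 3189, 3554 and 4257 FPKM in KO MII and 3204, 2324 and 2151 in KO GV (log2 0.53 ± 0.34, adjusted p = 0.241). Without KO GV replicate 2 the log2 changes were 0.18 and 0.47, of opposite sign for mt-Rnr1 and uncalled. In KO from GV to MI, where 2.53% of all genes were higher, mt-Rnr2 was the 1 member called, with 4104, 4376 and 11895 FPKM in KO MI and 3204, 2324 and 2151 in KO GV (log2 1.25 ± 0.34, adjusted p = 0.0213, and 1.19 without KO GV replicate 2). It was not called with no filter on low values, with only the groups compared, or without KO MI replicate 3, which held the 11895 FPKM, and without KO GV replicate 3 mt-Cytb and mt-Atp6 were called as well. Between MI and MII, 0 members were called in KO, where 11.9% of all genes changed, with 3 at an unadjusted p under 0.05 and 0 by voom. mt-Co3 (log2 -0.83 ± 0.29, adjusted p = 0.0769) was nearest, and it was called without KO GV replicate 2 or WT MI replicate 3.

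The change from GV to MII was not shown to differ between genotypes for any member. In that difference 0 of 15 were called (limma), where 5.61% of all genes were, with 5 at an unadjusted p under 0.05 and 1, mt-Nd2, by voom. The KO change minus the WT change had a median of -0.88 over the mRNAs, against -0.17 over all genes, and was negative for 11 of 12 (9 with median-of-ratios scaling). The median over the mRNAs was -1.14 without KO GV replicate 2. mt-Nd6 had the difference -1.75 ± 0.52 (SE, adjusted p = 0.0531), mt-Nd2 -2.08 ± 0.63 (adjusted p = 0.0574) and mt-Rnr1 -2.03 ± 0.67 (adjusted p = 0.0747). Without KO GV replicate 2 these were -1.77, -2.17 and -1.76. mt-Nd2, mt-Nd6, mt-Rnr1 and mt-Co3 were called without KO GV replicate 3. mt-Nd2 and mt-Nd6 were called without KO MI replicate 3, WT MI replicate 3 or KO MII replicate 3, and mt-Nd6 without WT MI replicate 1. From GV to MI the differences gave 0 calls (0.0775% of all genes called, 2 members at an unadjusted p under 0.05, 0 by voom). From MI to MII they gave 0 calls too (4.36% of all genes, 0 members at an unadjusted p under 0.05, 0 by voom).

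**Figure D3:**
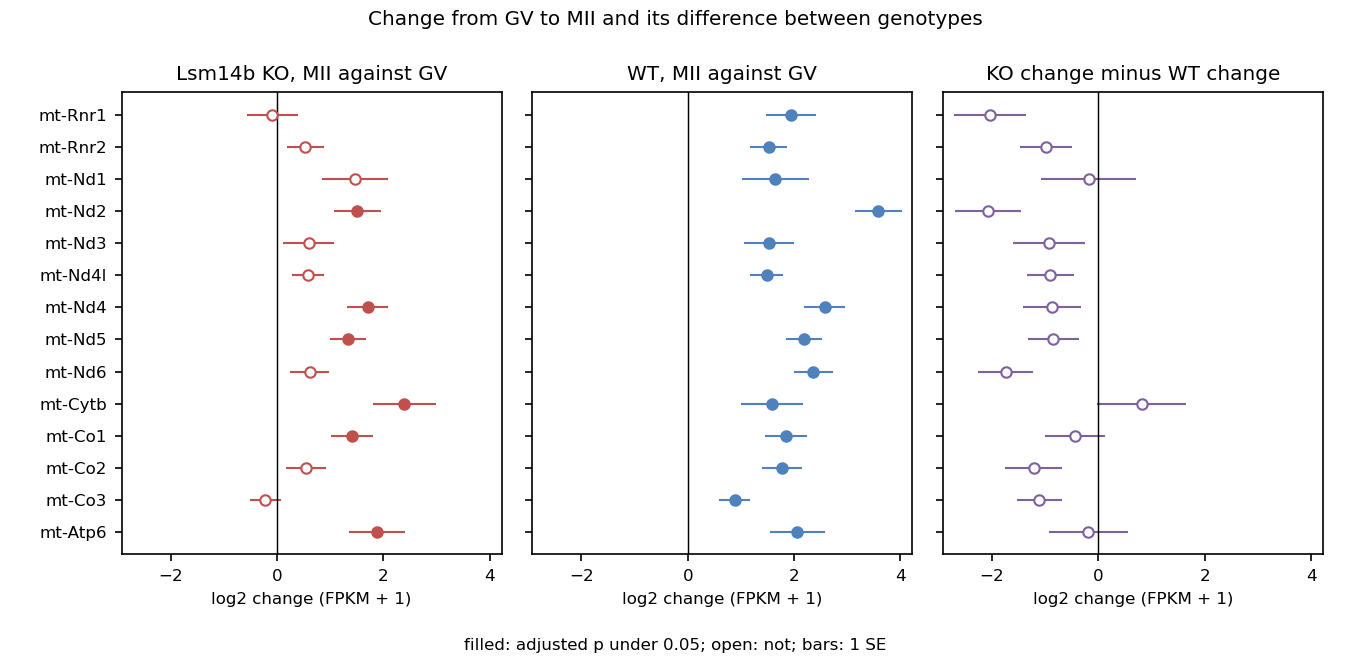
Log2 change of FPKM + 1 (x axis) from GV to MII for 14 members (y axis) in Lsm14b KO (left) and WT (middle), and the KO change minus the WT change (right). Points are limma estimates with 1 SE, filled where the adjusted p was under 0.05: 6 in KO, 14 in WT and 0 for the difference.

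At GV, 1 member differed between KO and WT (limma, adjusted p under 0.05), where 20.8% of all genes did and 13.3% were higher in KO. It was mt-Rnr1, with 1725, 1843 and 629 FPKM in KO GV and 502, 482 and 463 in WT GV. The groups did not overlap, and KO GV replicate 3 was the KO library nearest to WT. The log2 change was 1.38 ± 0.48 (SE, adjusted p = 0.0464), and without KO GV replicate 2 it was 1.11 ± 0.51 (adjusted p = 0.17). The call was lost without any 1 of 10 libraries, 5 of them in these 2 groups (KO GV replicates 1 and 2 and each WT GV library). The other 5 were KO MI replicate 1, WT MI replicate 2, KO MII replicate 1 and WT MII replicates 1 and 3. The call was also lost with a pseudocount of 5, no filter on low values, median-of-ratios scaling, only the groups compared (adjusted p = 0.108) or the replicate block (adjusted p = 0.0602), with log2 changes of 1.22 to 1.38. Of the 4 cumulus and granulosa markers tested, 1 was higher in KO at GV, where the 13 summed to 7.15 to 7.17 FPKM in KO GV and 3.99 to 9.08 FPKM in WT GV, and their part was not tested.

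No mRNA was called at GV, and the median log2 change of the 12 was 0.12, against 0.174 for all genes. That median was -0.01 with median-of-ratios scaling, which moved all genes to 0.052, and 0.39 without KO GV replicate 2. mt-Cytb had the lowest estimate, with 1795, 236 and 2907 FPKM in KO GV and 2667, 2342 and 3993 in WT GV (log2 -1.44 ± 0.59 SE, adjusted p = 0.0829 in limma). It was -0.36 ± 0.33 without KO GV replicate 2 (adjusted p = 0.528) and -2.16 without KO GV replicate 3 (adjusted p = 0.00472). mt-Co2, a complex IV subunit, held 29.8, 25.9 and 31.9 FPKM in KO GV and 13.8, 10.7 and 25.6 in WT GV without overlap (log2 0.85 ± 0.38, adjusted p = 0.106), and was called without WT MI replicate 3. mt-Nd6 likewise did not overlap, with 147, 105 and 84.6 FPKM in KO GV and 73.2, 52.2 and 63.6 in WT GV (log2 0.80 ± 0.37, adjusted p = 0.117). Without KO GV replicate 2 the log2 changes were 0.93 for mt-Co2 and 0.83 for mt-Nd6. Within the mRNA sum, mt-Cytb took 24.4%, 13.4% and 29.2% in KO GV and 46.1%, 38.7% and 53.1% in WT GV, without overlap.

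At MI, 0 members differed between KO and WT, where 17.3% of all genes did, with 2 at an unadjusted p under 0.05 and 0 by voom. All 12 mRNA estimates were negative (10 of 12 with median-of-ratios scaling), with a median log2 change of -0.58, against -0.132 for all genes. mt-Nd5, a complex I subunit, came nearest, with 82.1, 101 and 151 FPKM in KO MI and 229, 239 and 146 in WT MI (log2 -0.88 ± 0.34 SE, adjusted p = 0.0813 in limma). WT MI replicate 3 fell among the KO libraries. mt-Nd5 and mt-Nd4 were called without that library, and mt-Nd5 and mt-Cytb without KO GV replicate 2. The rRNA estimates were positive, 0.37 for mt-Rnr1 and 0.43 for mt-Rnr2, with 1945, 1561 and 4203 FPKM of mt-Rnr1 in KO MI and 3176, 1887 and 991 in WT MI.

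At MII, 2 members were lower in KO, mt-Nd2 and mt-Nd5 (limma, adjusted p under 0.05), where 28.6% of all genes differed and 13.8% were lower. mt-Nd2 held 711, 501 and 1372 FPKM in KO MII and 1295, 2152 and 2192 in WT MII (log2 -1.21 ± 0.44 SE, adjusted p = 0.0469). The highest KO library lay above the lowest WT library. mt-Nd5 held 162, 136 and 184 FPKM in KO MII and 234, 352 and 383 in WT MII without overlap (log2 -0.98 ± 0.34, adjusted p = 0.0367). The mt-Nd5 call was lost without any KO MII library or without WT MII replicate 2 or 3. The mt-Nd2 call was lost without any 1 of 9 libraries: KO GV replicate 1, WT GV replicate 1, KO MI replicate 2, WT MI replicates 1 and 2, KO MII replicates 1 and 2, and WT MII replicates 2 and 3. Both calls were lost with no filter on low values (adjusted p = 0.157 for mt-Nd2 and 0.108 for mt-Nd5) and with median-of-ratios scaling (0.0596 and 0.071), and that of mt-Nd2 with a pseudocount of 5 (0.0538) or the replicate block (0.053). Log2 changes in these settings were -1.21 to -1.15 for mt-Nd2 and -0.98 to -0.91 for mt-Nd5. The count was 0 without KO MII replicate 2, WT MII replicate 2 or WT MII replicate 3, 1 without KO GV replicate 1, WT MI replicate 2 or KO MII replicate 1 (where mt-Nd4l was called instead), and 4 without KO GV replicate 2 or KO GV replicate 3.

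The other mRNAs at MII had negative estimates too, with a median of -0.77 over the 12, against 0.007 for all genes. mt-Nd3 held 2.11, 1.24 and 2.99 FPKM in KO MII and 3.07, 10.3 and 7.07 in WT MII (log2 -1.25 ± 0.48 SE, adjusted p = 0.0575 in limma). This small complex I mRNA rested on 2 to 59 reads per library. mt-Nd6 held 184, 92.5 and 278 FPKM in KO MII and 276, 365 and 341 in WT MII (log2 -0.95 ± 0.37, adjusted p = 0.0602), where 1 KO library passed the lowest WT library. The 3 most abundant mRNAs had estimates of -0.63 for mt-Cytb, -0.38 for mt-Nd1 and -0.19 for mt-Co1, with adjusted p of 0.462, 0.701 and 0.775. Cumulus and granulosa markers summed to 5.52 to 7.27 FPKM in KO MII and 7.92 to 9.87 FPKM in WT MII, and their part in these differences was not tested.

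**Figure D4:**
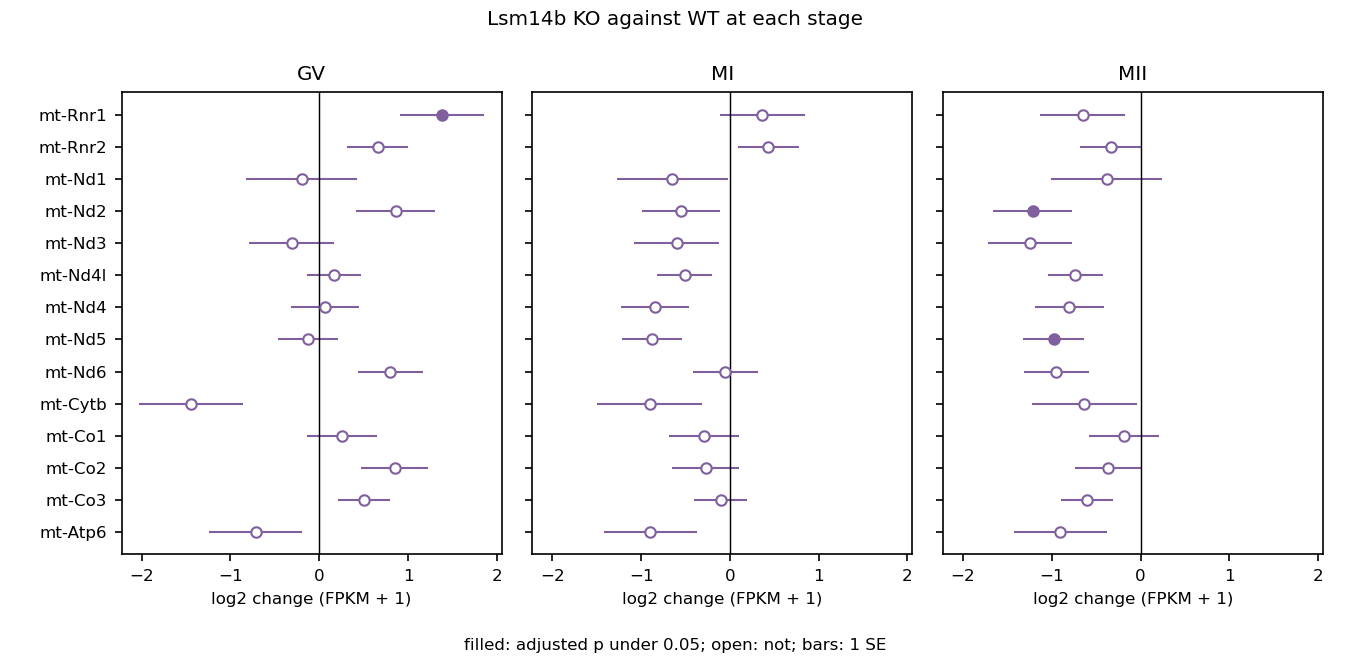
Log2 change of FPKM + 1 (x axis) in Lsm14b KO against WT at GV, MI and MII for 14 members (y axis). Points are limma estimates with 1 SE, filled where the adjusted p was under 0.05: mt-Rnr1 at GV, none at MI, and mt-Nd2 and mt-Nd5 at MII, where all 12 mRNA estimates are negative.

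**Figure D5:**
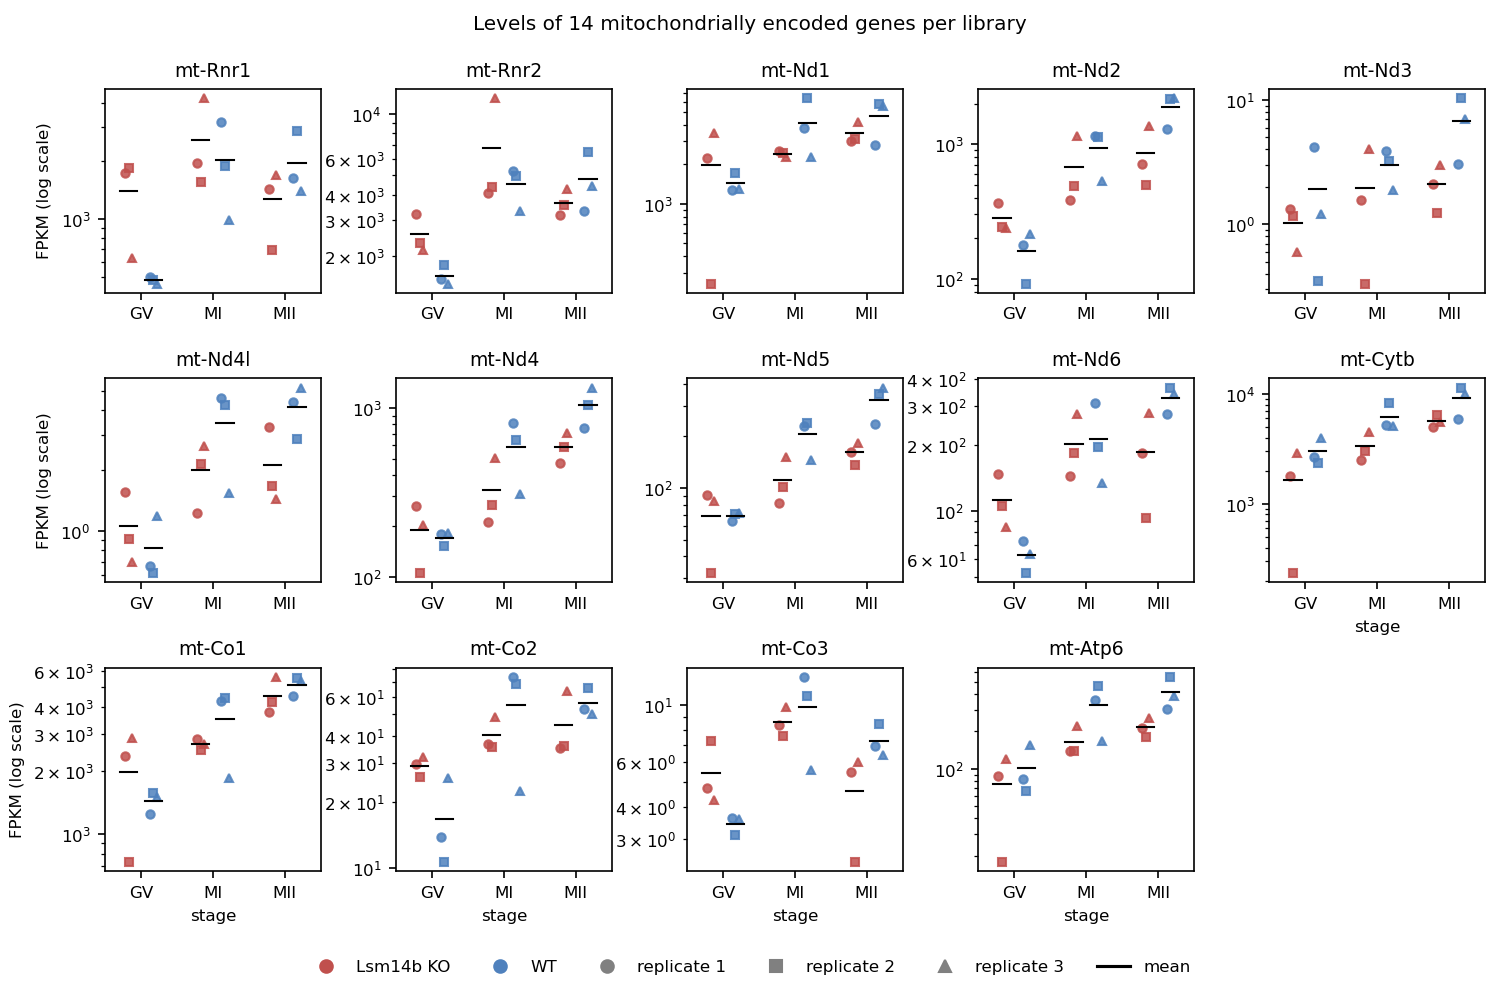
FPKM (log scale) of 12 mRNAs and 2 rRNAs in every library by stage, with Lsm14b KO left of WT and bars for group means. KO GV replicate 2 lies low for mt-Nd1, mt-Cytb, mt-Atp6, mt-Co1, mt-Nd4 and mt-Nd5 and not for mt-Nd2, mt-Co2 or mt-Co3.

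The tRNAs and mt-Atp8 were at the edge of detection. mt-Tp, the proline tRNA gene, had 0 to 6 reads per library and was called in no comparison with all libraries, with 1.82, 5.54 and 1.83 FPKM in KO MII and 0.885, 1.81 and 5.51 in WT MII. Without WT GV replicate 1, which held 5 of its reads, it was called higher in WT MII against GV (limma, adjusted p = 0.00738), KO MII against MI (adjusted p = 0.0215) and KO MII against GV (adjusted p = 0.0346), and with only the groups compared in KO MII against MI (adjusted p = 0.0182). mt-Tc, the cysteine tRNA gene, had 1 read in 2 KO libraries and 0 in the other 16. mt-Atp8, the small ATP synthase subunit, was detected in 5 KO libraries and 5 WT libraries at 0.291 to 0.969 FPKM. No difference is drawn from these counts.

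The nuclear copies followed the members they resemble to different degrees. Gm10925, identical to mt-Atp6 over 678 bases, ran from 18 to 1078 FPKM, lay above mt-Atp6 in 18 of 18 libraries and had Pearson r = 0.99 with it over these libraries, which share depth and possibly reads. Gm28661 correlated with mt-Co2 at r = 0.95, Gm28439 with mt-Nd4 at r = 0.923, Gm28437 with mt-Co3 at r = 0.838 and Gm10222 with mt-Nd4l at r = 0.813. Among the near-identical copies, r was lower for Gm28438 with mt-Nd3 (0.527, on few reads) and for Gm29216 with mt-Co1 (0.275), which ran from 16.3 to 171 FPKM. Among the less similar copies with values, r was 0.881 for Gm13340 with mt-Co1 and 0.627 for Gm13339 with mt-Nd2. It was 0.321 for Gm4076 with mt-Nd5 and 0.17 for Gm13341 with mt-Co2. These copies stayed at or under 4.82, 1.45, 0.123 and 0.412 FPKM, in that order. Gm10222 lay above mt-Nd4l in 17 of 18 libraries and Gm28437 above mt-Co3 in 16. Of 7 such pseudogenes tested, 3 were higher at MII than at GV in KO, where 11.9% of all genes were, and 6 in WT, where 28.9% were. How far reads of mitochondrial RNA were counted on the copies was not tested.

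Adding each copy's reads to its partner, per length, changed few calls. At GV, mt-Co3 with Gm28437 was then called higher in KO, with 28.9, 30.6 and 14.1 FPKM in KO GV and 7.30, 8.40 and 6.46 in WT GV (log2 1.54, adjusted p = 0.0473 in limma). mt-Nd3 with Gm28438 was called lower in KO at MII (log2 -1.43, adjusted p = 0.0389). mt-Nd4l with Gm10222 was called higher at MII than at GV in KO (log2 2.77, adjusted p = 0.00435). The setting was chosen after the data were seen.

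Nuclear genes for the same respiratory complexes changed in the opposite direction from GV to MII. From GV to MII in WT, 29 of 35 complex I subunits, 8 of 9 of complex III, 9 of 11 of complex IV and 13 of 14 of ATP synthase were lower (limma, adjusted p under 0.05, where 28.8% of all genes were lower), and 0 of them were higher. Their median log2 changes were -2.58, -2.36, -2.33 and -2.46, against 0.087 for all genes. From GV to MI in WT these medians were 0.03, -0.01, 0.43 and -0.34, against 0.241 for all genes. From MI to MII they were -2.33, -1.89, -2.15 and -2.26, against -0.142. The mitochondrial mRNAs had medians of 1.47 and 0.59 at these steps, so the 2 sets did not mirror each other step by step. Ndufb11, a complex I subunit gene, held 3.98, 3.95 and 4.13 FPKM in WT MII and 256, 214 and 224 in WT GV (log2 -5.53 ± 0.26 SE, adjusted p = 3.11e-11). Cox4i1 of complex IV (0.459, 0.392 and 0.159 FPKM in WT MII, 38.4, 28.1 and 37.4 in WT GV) and Atp5o of ATP synthase (0.473, 0.404 and 0.299 FPKM in WT MII, 37.4, 26.9 and 34.8 in WT GV) were lower as well.

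In KO the nuclear subunits were lower at MII than at GV too, 29 of 35 for complex I, 7 of 9 for complex III, 5 of 11 for complex IV and 10 of 14 for ATP synthase, where 25.4% of all genes were lower and 1 ATP synthase subunit was higher. At MII they stood higher in KO than in WT for 14, 4, 9 and 6 subunits of these complexes and lower for 0, where 14.9% of all genes were higher. At GV, 6, 1, 4 and 5 were already higher in KO and 0 lower, where 13.3% of all genes were higher. At MI, 0, 0, 0 and 1 were higher and 3, 1, 0 and 1 lower, where 17.3% of all genes differed. The KO change from GV to MII was called above the WT change for 2, 0, 2 and 2 and below for 0, where 5.61% of all genes were called. Ndufb3 of complex I held 83.4, 46.1 and 88.0 FPKM in KO MII and 8.94, 8.84 and 2.90 in WT MII (log2 3.29 ± 0.40 SE, adjusted p = 8.04e-06 in limma). Cox7b of complex IV held 11.2, 11.6 and 12.1 FPKM in KO MII and 1.32, 1.20 and 1.67 in WT MII (log2 2.40 ± 0.24, adjusted p = 1.17e-06). Atp5f1 of ATP synthase held 30.8, 29.6 and 34.7 FPKM in KO MII and 8.05, 7.0 and 4.42 in WT MII (log2 2.15 ± 0.29, adjusted p = 2.2e-05). At the same stage all 12 mitochondrial mRNAs had negative estimates, 2 of them called.

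Among the nuclear genes for transcription, processing and decay of mitochondrial RNA, calls in KO went both ways at GV and mostly down later. Of 29 tested, 4 were higher and 6 lower at GV, where 20.8% of all genes differed. At MI 0 were higher and 7 lower, where 17.3% differed. At MII 1 was higher and 6 were lower, where 14.9% of all genes were higher and 13.8% lower. The median log2 changes of the 29 were -0.06, -0.38 and 0.11 at these stages, against 0.174, -0.132 and 0.007 for all genes. The sum of the 31 genes found was lower in KO without overlap at every stage, at MII 238 to 269 FPKM against 308 to 386. Trnt1, which adds the CCA end to tRNAs, held 6.40, 4.57 and 5.36 FPKM in KO MII and 25.9, 35.9 and 24.8 in WT MII (log2 -2.20 ± 0.27 SE, adjusted p = 1.1e-05 in limma). Mterf1b, from the gene family of a mitochondrial transcription termination factor, held 0.626, 0.316 and 0.447 FPKM in KO MII and 8.24, 8.09 and 6.79 in WT MII (log2 -2.57 ± 0.18, adjusted p = 2.16e-08). Mterf1a, its close paralog, had log2 -1.50 ± 0.19 (adjusted p = 1.6e-05), and reads shared by this pair could be split between them. From GV to MII in WT, 9 of the 29 were higher and 8 lower, near the shares of all genes (28.9% higher and 28.8% lower). Polrmt, the mitochondrial RNA polymerase gene, held 0.380, 0.259 and 0.538 FPKM in WT MII and 9.48, 9.79 and 6.11 in WT GV (log2 -2.74 ± 0.26, adjusted p = 9.54e-08).

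By Pearson r over the 18 libraries with the summed mitochondrial mRNA on a log2 scale, the nuclear genes most like it were Kif11 (0.922), Ramac (0.913), Idi1 (0.906), Rheb (0.894) and Ergic2 (0.875), among genes with a mean of at least 5 FPKM and no clone or pseudogene name. Libraries of 1 group share stage and genotype, so these values describe a shared pattern over 6 groups.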

How the data were processed

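The deposited table gave FPKM per gene in 18 libraries, computed by the authors from oligo(dT)-primed Smart-seq2 cDNA, per the labels' protocols. The aligner, counter, annotation and strand: not given in the sources used here. The names mm10 and DESeq2 1.38.3 stand in the submitters' processing notes without a role. Poly(A) tail length can affect capture, so a level may reflect tails as well as RNA amount. Identifiers were matched to GENCODE vM21 (27829 found, 45 not). FPKM times exon length gave whole reads within 0.1 read in all libraries for 94.0% of genes, and depth follows from that step. Reads were amplified by PCR with no molecular identifiers, so they are not independent molecules.

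A minimum of 1 FPKM in 3 or more libraries left 10320 genes, fitted as log2(FPKM + 1) with limma 3.58.1 in R 4.3.3, with 6 group means, a variance trend and 12 residual degrees of freedom. No scaling was added. P-values are two-sided, adjusted by Benjamini-Hochberg within each of 12 comparisons over all genes tested, with a threshold of 0.05. The fit was tested on simulated data. Nuclear copies were found with BLAST+ 2.17.0 among annotated transcripts. Tables and figures used Python 3.11.15 with pandas 2.3.3, numpy 2.4.6, scipy 1.17.1 and matplotlib 3.10.9.

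Members and gene lists were chosen with earlier results of these data known. Named were members with a mean of at least 1 FPKM, the 3 list members with the smallest p in KO against WT at MII and in WT MII against GV (examples of these are printed), the 5 genes most like the mRNA sum (mean at least 5 FPKM), and Lsm14b. The pseudogene pairs and the low members were described in addition. Results were recomputed with a pseudocount of 0.1 or 5, without the filter, with a minimum of 5 FPKM, with TPM or median-of-ratios scaling, with scaling to the nuclear sum, in a fit of only the groups compared, with a replicate block, by voom on the recovered reads, with nuclear copies added to their partners, and without each library in turn.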

Additional observations from a re-analysis of the deposited data

How the results depend on the processing

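Of 33 calls of members, 16 were kept without any 1 library and 13 under every setting run, and 0 estimates changed sign among them. Counts of members called in KO against WT at GV (1) were 0 with a pseudocount of 5, no filter, median-of-ratios scaling, only the groups compared or the replicate block, and 2 with nuclear copies added. In KO against WT at MII (2) they were 0 with no filter or median-of-ratios scaling, 4 with scaling to the nuclear sum, 5 with only the groups compared and 1 with the replicate block. They were 3 there with the 5 FPKM filter, voom or nuclear copies added. In WT MI against GV, a fit of only the groups compared added mt-Cytb, mt-Nd1, mt-Co1 and mt-Atp6 to the 9 called. The counts there were 1 with no filter and 5 with median-of-ratios scaling. In WT MII against MI (0) they were 2 with TPM scaling, 3 with the nuclear sum and 1 with only the groups compared. In KO MI against GV (1) they were 0 with no filter or only the groups compared. In KO MII against MI (0) they were 1 with median-of-ratios scaling or only the groups compared, and in KO MII against GV (6) 3 with only the groups compared. In the genotype difference from GV to MII (0) they were 1 with a pseudocount of 0.1, TPM scaling or voom, and 2 with the 5 FPKM filter or the nuclear sum. Smaller changes in these counts are not all listed here, and the cause of the changes was not tested.

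Leaving out 1 library gave 0 to 2 calls in KO against WT at GV, 0 to 2 at MI and 0 to 4 at MII. It gave 1 to 13 in WT MI against GV, 0 to 2 in WT MII against MI and 10 to 14 in WT MII against GV. It gave 0 to 3 in KO MI against GV, 0 to 1 in KO MII against MI and 5 to 7 in KO MII against GV. In the genotype differences it gave 0 to 4 from GV to MII and 0 to 0 in the other 2. At GV, KO against WT had 2 calls without KO GV replicate 3 or WT MI replicate 3.

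Correlations of same-numbered deviations ran from -0.522 to 0.42. They were not compared with those of differently numbered libraries, so whether replicate numbers pair the libraries was not settled. Median-of-ratios scaling moved the median of all genes at GV from 0.174 to 0.052, in WT MI against GV from 0.241 to -0.015 and in WT MII against GV from 0.087 to -0.108. Depth limits mt-Nd3, mt-Nd4l, mt-Atp8 and the tRNAs, with at most 59 reads per library.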
